A study of Mus musculus with 12 samples.

Results

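The genes described are the nuclear genes of the mitochondrial ribosome, taken as every row of the deposited table whose symbol begins with Mrpl or Mrps followed by a digit and whose level reaches at least 1 TPM (a gene's length-corrected share of the reads of a library) in at least 3 of the 12 libraries. Of 18530 rows, 77 have such a symbol and all 77 passed the level rule, 48 with an Mrpl symbol (large subunit) and 29 with an Mrps symbol (small subunit). The rule uses level only and no difference between groups. A pair of the Mrps symbols, Mrps18a and Mrps30, belongs to large subunit proteins by current structural knowledge, and Mrps36 is now assigned to a metabolic enzyme complex (Kgd4). They were kept, because the rule goes by symbol. The 77 genes lie on 17 chromosomes and all are protein coding in GENCODE.

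The RNA came from cardiomyocytes isolated from mouse hearts and covers 4 groups of 3 libraries. Every animal carries the mdx allele, a point mutation in the dystrophin gene Dmd that ends the full-length protein, so no group here has intact dystrophin. The groups are mdx given saline, mdx given PB1046, mdx:Utrn+/- given saline and mdx:Utrn+/- given PB1046. In mdx:Utrn+/- mice 1 copy of Utrn, which encodes the dystrophin relative utrophin, is also lost, and the other copy remains. PB1046 is a long-acting analog of vasoactive intestinal peptide. PB1046 or saline was injected on alternate days between 4 and 12 weeks of age, and the hearts were collected at an age of 14 weeks. The labels name a high dose for the PB1046 libraries, which is taken here as 1.5 mg/kg, the larger of the doses in the protocol. The labels give no sex, and nothing in them says that each library is a separate animal, so the p-values below measure the spread between these libraries. Their batch field repeats the group, so a batch in that field and a group cannot be told apart. The numbers in the library names cross the groups, and what they stand for is not given in the labels.

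Mitochondria keep a small genome of their own and translate its messenger RNAs on a ribosome unlike the one of the cytosol. Its RNA is made in the organelle, but all of its proteins are encoded in the nucleus, made on cytosolic ribosomes and imported. What it translates are core subunits of the respiratory chain and of ATP synthase, so it works side by side with the nuclear genes for the other oxidative phosphorylation subunits. Heart muscle is among the tissues richest in mitochondria, and inherited defects of some of these genes, among them MRPL3, MRPL44, MRPS14 and MRPS22, have been tied to cardiomyopathy in infants. The table used here holds no gene of the mitochondrial genome, so the messages that this ribosome translates were not analysed here.

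Libraries held 7234100 to 25458194 reads, recovered from the deposited TPM, and each of the 77 genes had 95 to 9614 reads in every library. The cardiomyocyte label was borne out by the marker genes: the 10 cardiomyocyte markers, such as Myh6, Myl2 and Tnnt2, summed to 119890 to 164610 TPM. The 12 endothelial markers summed to 246 to 1622 TPM, with none at 0. Utrn, the gene that defines the genotypes, was at 8.92 to 11.3 TPM in mdx saline and 3.32 to 6.28 TPM in mdx:Utrn+/- saline. Under PB1046 the genotypes overlapped in Utrn: replicate 1 of mdx PB1046 was at 6.11 TPM and replicate 2 of mdx:Utrn+/- PB1046 at 9.92 TPM. Replicates 2 and 3 of mdx PB1046 were at 17.1 and 18.3 TPM. The mean centred log2 level of the endothelial markers was -0.91, 0.44 and 1.11 in mdx PB1046 and 0.95 in replicate 2 of mdx:Utrn+/- PB1046. Whether Utrn follows endothelial RNA was not tested. The titles' labels are used throughout for the overlapping pair, replicate 1 of mdx PB1046 and replicate 2 of mdx:Utrn+/- PB1046. Member medians without the pair are given where they differ. The ribosomal RNA transcript Rn45s ranged from 1039 to 42106 TPM.

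As deposited, the 77 genes together made up 1.01% to 1.22% of all TPM, 10145 to 12191 TPM per library. Because some libraries hold more of their reads in a few very abundant genes, levels from here on are scaled TPM: the deposited TPM divided by a trimmed-mean factor of the library (0.827 to 1.28). Scaling widened the range of the sum to 7916 to 14603. All 77 genes lay above the median gene: their median mean level was 96.9 scaled TPM (middle range 46.8 to 197), against 10.6 over the 12798 genes tested, and 37 of the 77 reached 100.

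The highest member was Mrpl12, a protein of the stalk that recruits translation factors and is also known to bind the mitochondrial RNA polymerase, with a mean of 799.5 scaled TPM over 12 libraries. Next came Mrpl42 (795), Mrpl30 (630), Mrps21 (535) and Mrpl33 (446). These 5 genes held 27.5% of the summed level. The lowest were Mrpl19 (13), Mrpl1 (14.9), Mrpl17 (15), Mrps25 (17.0) and Mrpl57 (18.4). The means of the 77 messages thus spanned a 61.5-fold range, although the proteins join in fixed proportions in the ribosome. The order was kept between libraries, with a rank correlation across the 77 genes of 0.934 to 0.995 for every pair of libraries. That is a description across genes, which share library and depth. Mrpl12 and Mrpl42 did not differ beyond their spread: Mrpl12 ran from 465.5 to 1320 and Mrpl42 from 510 to 979 over the libraries.

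**Figure D1:**
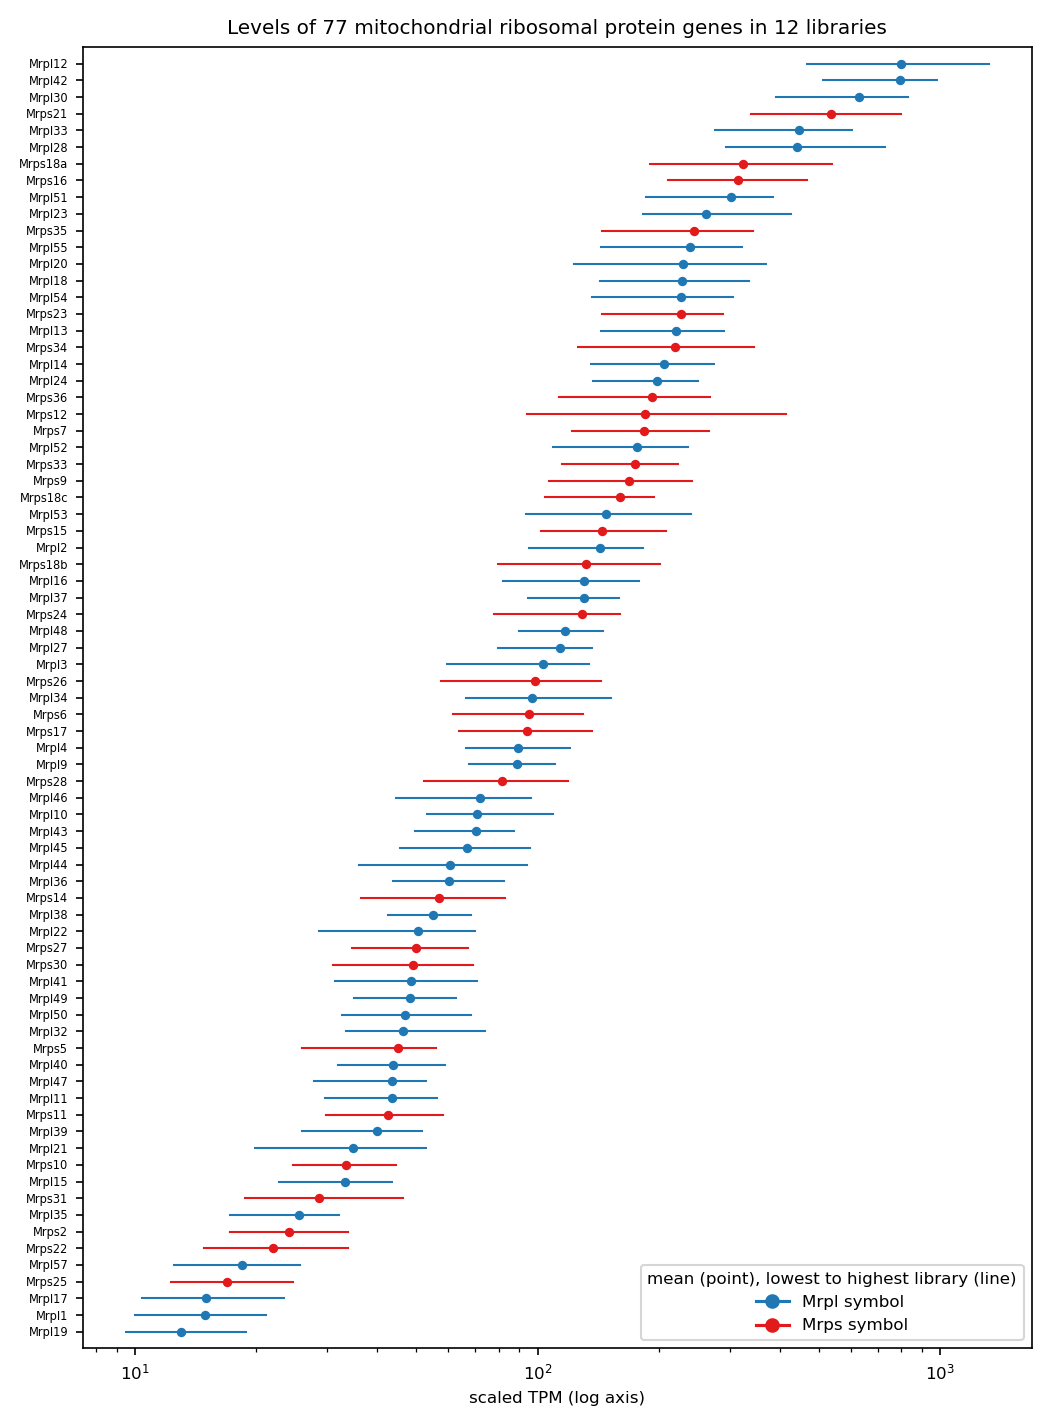
Level of each of the 77 genes in scaled TPM on a log axis, sorted by mean; the point is the mean of 12 libraries and the line runs from the lowest to the highest library, in blue for Mrpl and red for Mrps symbols. Means span 13 (Mrpl19) to 799.5 (Mrpl12), and neighbours in the order overlap widely.

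The sum of the Mrpl genes was 1.80 to 1.97 times that of the Mrps genes in every library, with group means of 1.89 ± 0.071 (SD, n = 3) in mdx saline, 1.89 ± 0.061 in mdx PB1046, 1.82 ± 0.031 in mdx:Utrn+/- saline and 1.87 ± 0.057 in mdx:Utrn+/- PB1046. The groups overlap, and the sums by symbol thus kept their proportion while the scaled sum of both moved. The Mrps sum includes Mrps18a, Mrps30 and Mrps36, so the ratio is of symbols and not of the subunits themselves. The scaling factor cancels in this ratio but not in the sum. As deposited, the sum of both had group means of 11743, 10669, 11709 and 11703 TPM in the same order. Variation over the 12 libraries, as a coefficient of variation, had a median of 23.2% among the members and 25.8% among all genes tested. It was smallest for Mrpl48 (14.9%), a protein of the central protuberance, and largest for Mrps12 (49.8%), a protein of the decoding centre. Some members share their place in the genome with another gene: 11 of the 77 overlap another row of the table, among them Mrps6 (with Slc5a3), Mrpl53 (with Ccdc142), Mrps25 (with Nr2c2) and Mrpl21 (with Mir6984). How reads in such overlaps were counted is not given in the sources used here, so their values are less certain.

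Promoters were examined because these genes moved together from library to library on scaled TPM, as described below. NRF1, the ETS factor GABP (also called NRF2) and YY1 are known regulators of nuclear genes for mitochondrial proteins, and the cAMP response element (CRE) is bound by CREB, a factor downstream of the receptors that PB1046 acts on. RefSeq promoter windows (GRCm38.p6, from 250 bases before to 50 bases after the start) were found for 68 of the 77 genes, 74 windows in all. They were searched on both strands for NRF1 (GCGCA and GCGC with any base between them), ETS (CCGGAAG), YY1 (AAGATGGC), the full CRE (TGACGTCA) and the CRE core (TGACG), where the full CRE always contains the core and the other motifs share no letters that must coincide. The NRF1 letters were in 13 windows (17.6%), against 4.60% of all 32851 windows and 9.66% of the 11991 windows of tested genes. The ETS letters were in 25 (33.8%, against 8.86% and 16.8%). The YY1 letters were in 12 (16.2%, against 2.75% and 4.29%). The full CRE was in 2 (2.70%, against 1.79% and 2.94%), those of Mrpl16 and Mrpl49. The CRE core was in 31 (41.9%, against 20.8% and 30.5%). At least 1 of NRF1, ETS and YY1 was in a window of 42 of the 68 genes. A match is a run of letters, not a site shown to be bound.

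The 120 bases before the RefSeq start are shown for 8 genes, 5′ to 3′ on the gene's strand, with only the named motif in capitals: NRF1 letters in 4 genes, among them the most abundant member and Mrpl30, which comes up in the comparisons below, ETS letters in 3, and the full CRE in Mrpl16.
Mrpl12, chr11:120484517-120484636, strand plus, NRF1: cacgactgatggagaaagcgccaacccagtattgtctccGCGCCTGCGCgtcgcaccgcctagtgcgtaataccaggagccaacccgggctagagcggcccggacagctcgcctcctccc
Mrpl30, chr1:37890357-37890476, strand plus, NRF1: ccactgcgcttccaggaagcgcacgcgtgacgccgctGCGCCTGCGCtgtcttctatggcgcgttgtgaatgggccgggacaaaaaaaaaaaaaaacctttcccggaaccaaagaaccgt
Mrpl44, chr1:79775898-79776017, strand plus, NRF1: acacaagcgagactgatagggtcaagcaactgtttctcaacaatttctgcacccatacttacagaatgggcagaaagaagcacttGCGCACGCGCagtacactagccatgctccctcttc
Mrpl45, chr11:97315596-97315715, strand plus, NRF1: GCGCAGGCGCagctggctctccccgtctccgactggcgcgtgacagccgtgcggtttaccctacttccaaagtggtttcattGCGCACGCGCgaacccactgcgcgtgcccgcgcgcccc
Mrps22, chr9:98601680-98601799, strand minus, ETS: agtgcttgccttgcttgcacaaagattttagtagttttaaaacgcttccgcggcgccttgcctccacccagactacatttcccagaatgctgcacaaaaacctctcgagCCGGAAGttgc
Mrpl3, chr9:105053148-105053267, strand plus, ETS: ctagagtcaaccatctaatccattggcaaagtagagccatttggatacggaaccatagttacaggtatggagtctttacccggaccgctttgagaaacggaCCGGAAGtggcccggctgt
Mrps18a, chr17:46110884-46111003, strand plus, ETS: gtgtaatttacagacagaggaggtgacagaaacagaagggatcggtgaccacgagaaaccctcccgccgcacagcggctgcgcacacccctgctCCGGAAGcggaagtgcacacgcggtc
Mrpl16, chr19:11770295-11770414, strand plus, CRE: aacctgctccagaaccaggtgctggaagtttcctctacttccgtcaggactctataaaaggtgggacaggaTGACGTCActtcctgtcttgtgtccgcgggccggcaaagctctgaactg
In Mrpl12 and Mrpl30 the RefSeq start is upstream of the start in the deposited table, and in the other 6 both are the same base. The ETS letters end close to the start in Mrps22, Mrpl3 and Mrps18a, beginning 11, 19 and 26 bases before it. The NRF1 letters begin 81 bases before the start in Mrpl12, 83 in Mrpl30 and 35 in Mrpl44. The promoter of Mrpl45 holds a second match to them, and the CRE of Mrpl16 begins 49 bases before the start.

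On scaled TPM the members moved as a block from library to library. For each gene the log2 level was centred on its own mean, and the mean of these centred values over the 77 genes gives a score for the library. The score was 0.17, -0.18 and -0.06 in replicates 1, 2 and 3 of mdx saline and 0.12, -0.40 and -0.49 in mdx PB1046. It was 0.27, 0.16 and 0.19 in mdx:Utrn+/- saline and 0.28, -0.29 and 0.23 in mdx:Utrn+/- PB1046. Thus only the mdx:Utrn+/- saline libraries were close to each other, and in each of the other groups 1 library stood on the other side of 0 from the rest. The first axis of a principal component analysis of the 77 genes carried 63.3% of their variance, with a weight of the same sign for all 77. Dividing by 1 factor per library shifts all its genes together. The summed level ran from 10145 to 12191 TPM as deposited and from 7916 to 14603 after scaling. How far the factors set the common movement was not tested. With trends of each library with gene length and level taken off, the score ran from -0.18 to 0.09. The lowest value of 39 genes was in replicate 3 of mdx PB1046, that of 28 in replicate 2 of mdx PB1046, and that of 5 in replicate 2 of mdx:Utrn+/- PB1046.

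A second axis carried 22.4% of the variance and split the members. At the end with positive weight stood Mrps12, Mrps18a, Mrpl12, Mrpl28 and Mrps34, and at the other end Mrpl32, Mrps31, Mrpl21, Mrpl53 and Mrpl18. Library values on this axis were highest in replicates 1 and 2 of mdx:Utrn+/- saline (0.25 and 0.19) and lowest in replicate 1 of mdx saline (-0.31), replicate 3 of mdx:Utrn+/- PB1046 (-0.24) and replicate 3 of mdx:Utrn+/- saline (-0.13). The last 3 libraries are also those with the most reads (22546257 to 25458194) and the least Rn45s (1039 to 1708 TPM), and whether either has a part in the split was not tested. Mrpl32 had 2.80% of its variance between groups, the least of any member.

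**Figure D2:**
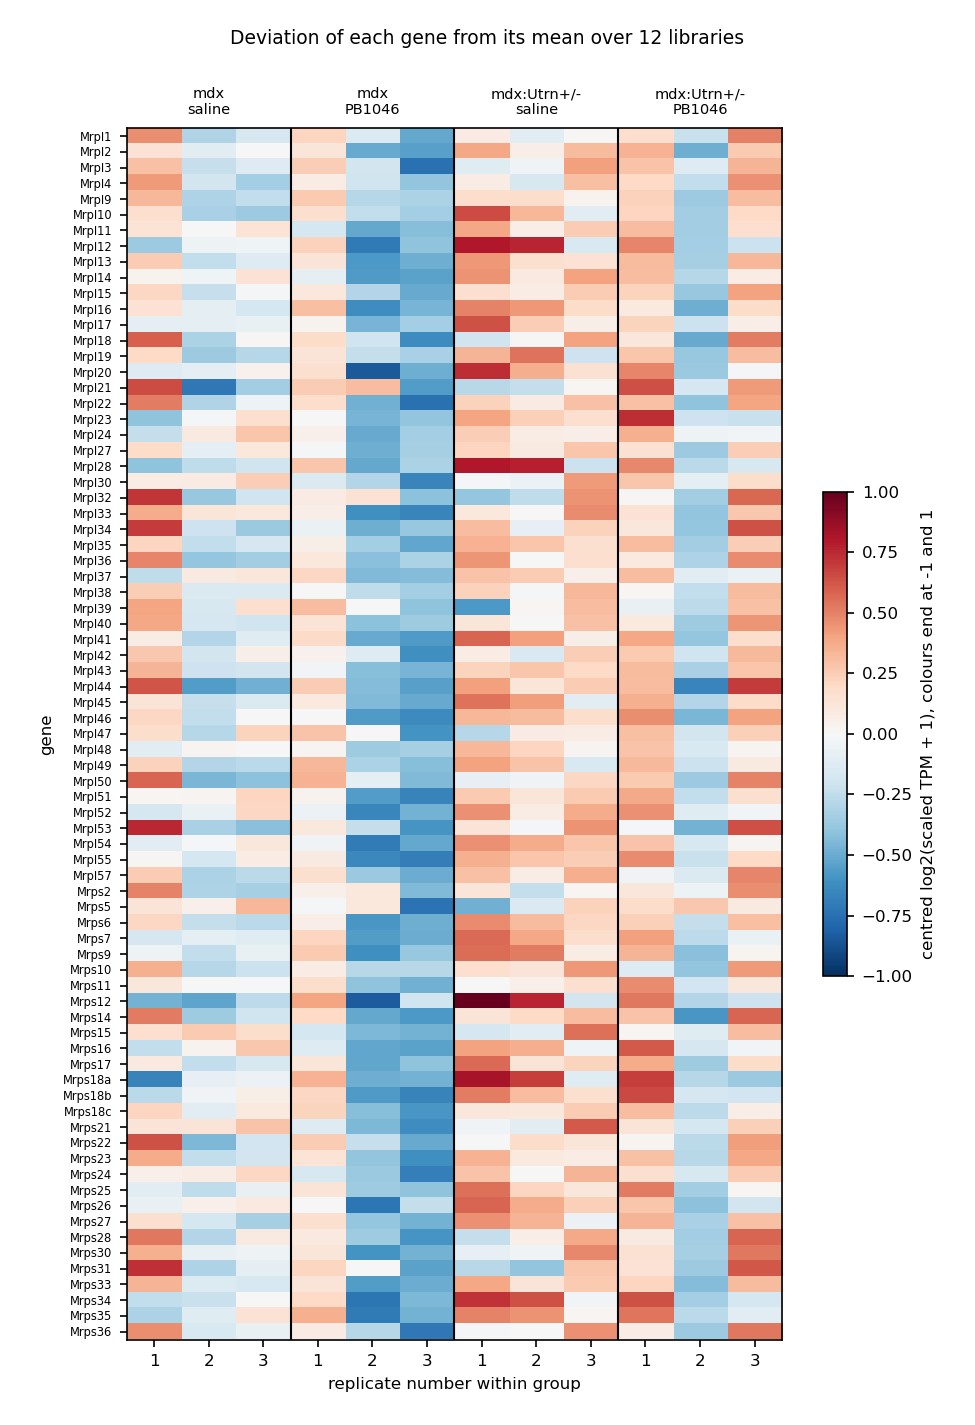
Each row is a gene and each column a library, coloured by log2(scaled TPM + 1) minus the gene's mean over the 12 libraries, red above and blue below. Replicates 2 and 3 of mdx PB1046 and replicate 2 of mdx:Utrn+/- PB1046 are blue for nearly all genes, while rows such as Mrps12, Mrps18a, Mrpl12 and Mrpl28 are red mainly in replicates 1 and 2 of mdx:Utrn+/- saline and replicate 1 of mdx:Utrn+/- PB1046.

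The libraries low in the members were those with more endothelial RNA. The endothelial score, computed likewise from 12 markers such as Pecam1, Cdh5 and Kdr, was above 0 in 5 libraries: replicates 2 and 3 of mdx saline, replicates 2 and 3 of mdx PB1046 and replicate 2 of mdx:Utrn+/- PB1046. In these 5 the member score was -0.49 to -0.06 and the cardiomyocyte marker score -0.63 to -0.20. In the other 7 they were 0.12 to 0.28 and 0.17 to 0.35, so neither score overlapped on scaled TPM. On deposited TPM the summed level of the members did overlap, at 10145 to 11697 TPM in the 5 and 11385 to 12191 TPM in the 7. The mean over the 5 libraries was below that over the 7 for 76 of the 77 genes on scaled TPM and for 65 on deposited TPM. On scaled TPM, 36 of the 77 genes (46.8%) were lower in each of the 5 libraries than in every one of the 7, against 7.71% of all genes tested. This split was chosen with the data in view and is a description. Replicates 2 and 3 of mdx saline and of mdx PB1046 also have the highest numbers among the library names, but replicate 2 of mdx:Utrn+/- PB1046 does not. Whether those numbers have a part in the split was not tested. In bulk RNA, fewer cardiomyocytes and less of this RNA per cardiomyocyte cannot be told apart. When trends of each library with gene length and level were taken off, the member score was -0.18 to 0.04 in the 5 and 0.02 to 0.09 in the 7. The members are short: the median length implied by the recovered reads, scaled to the annotation, was 1442 bases, against 3819 for all genes tested. By the exons annotated in GENCODE the medians were 2255 bases for the members and 4298 for the 12216 tested genes found there.

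**Figure D3:**
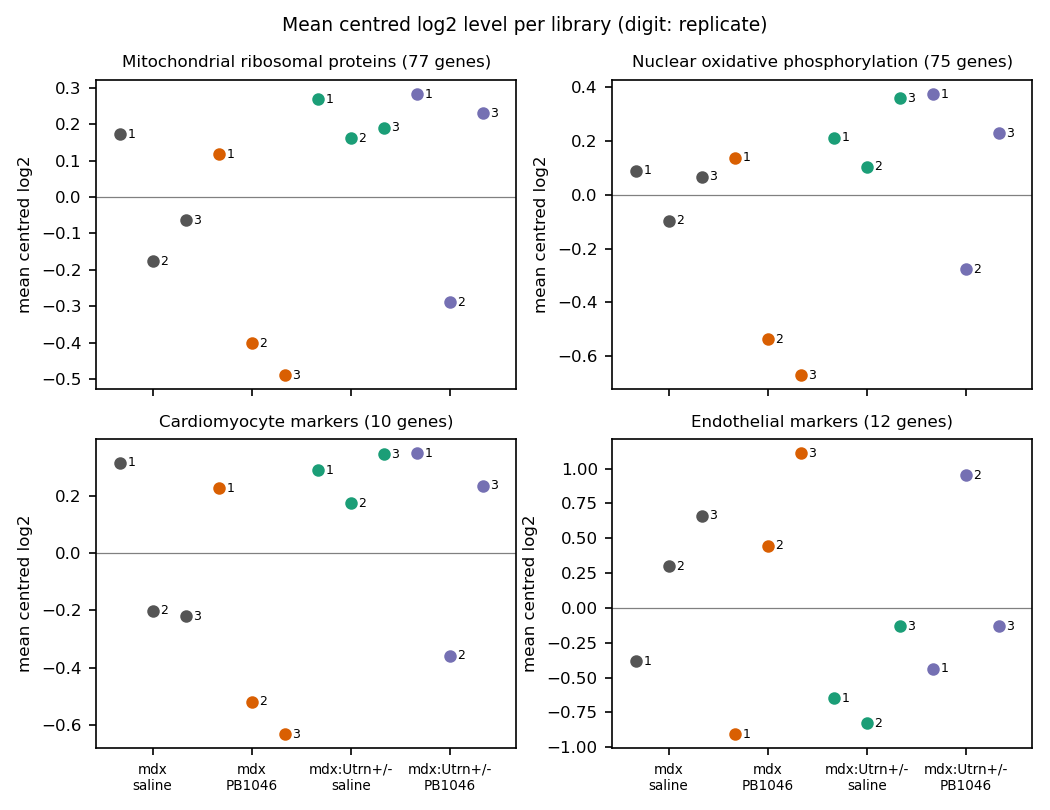
Mean centred log2 level per library for the 77 members, 75 nuclear oxidative phosphorylation genes, 10 cardiomyocyte markers and 12 endothelial markers; each point is a library, coloured by group and numbered by replicate. The 5 libraries above 0 in the endothelial panel are the 5 below 0 in the member panel and in the cardiomyocyte panel.

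No member passed the threshold in any comparison of groups. The limma fit over 12798 genes gave adjusted p-values (Benjamini-Hochberg over all genes) of at least 0.837 for every member in all 7 contrasts, and no gene of the whole table passed 0.05 either. A limma-voom fit on the recovered reads called 0 members as well. What follows therefore gives sizes, intervals and counts, and none of the differences is a call. With 3 libraries against 3, an exact permutation test of a single gene cannot go below 0.1.

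The response to PB1046 in mdx hearts was examined first. Means were lower with PB1046 than with saline for 70 of the 77 genes and higher for 7, and the median log2 change was -0.22 against 0.01 for all genes tested. Unscaled TPM kept this direction (56 genes lower, median -0.07 against 0.14 for all genes). At an unadjusted p under 0.05 stood 6 members, all lower, which is 7.79% of them against 1.23% of all genes in that direction. The saline and PB1046 libraries did not overlap for 7 members, all lower with PB1046 (background 4.14%): Mrpl33, Mrps21, Mrps15, Mrps24, Mrpl30, Mrpl11 and Mrpl14. The median was -0.43 without replicate 1 of mdx PB1046, whose level of Utrn lies among the other genotype, -0.11 without replicate 3 and -0.12 without replicate 1 of mdx saline. With length and level trends taken off it was -0.13, and with the endothelial score as a term in the fit -0.21. With the 7 libraries of low endothelial score alone, which leave 1 library in each mdx group, 47 genes were lower and the median was -0.10.

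Markers of other cells moved with this comparison. The 12 endothelial markers were even (6 higher, 6 lower, median -0.02), but all 10 fibroblast markers, such as Pdgfra and Col1a1, had a higher mean with PB1046 (median 0.49). Their sum was 246 to 791 TPM in the mdx saline libraries and 554 to 1114 TPM in mdx PB1046. All 10 tested macrophage markers, such as Csf1r and C1qa, were higher (median 0.46), with sums of 121 to 678 and 294 to 859 TPM. Of the 9 markers of smooth muscle and pericytes 8 were higher (median 0.47), with sums of 174 to 250 and 251 to 447 TPM, and all 5 erythroid genes were higher (median 1.93), with sums of 19.1 to 99.2 and 73.7 to 1098 TPM. The 4 atrial genes, such as Myl7, were lower (median -0.20), with sums of 526 to 4568 and 662 to 1634 TPM. No marker in these lists was at 0 in any library or passed the threshold, and their part in the result was not tested.

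Mrps15, a small subunit protein with a bacterial counterpart, was at 160, 171 and 160 scaled TPM in mdx saline and 125, 104 and 102 in mdx PB1046. Every PB1046 library lay below every saline library, and saline libraries differed little among themselves. The log2 change was -0.57 (SE 0.22, 95% interval -1.04 to -0.10, limma adjusted p = 0.99962). Mrps24, which sits at the entry of the messenger RNA channel, was at 131, 133 and 145.5 with saline and 113, 97.6 and 78.05 with PB1046. The groups did not overlap, and the log2 change was -0.51 (SE 0.20, 95% interval -0.94 to -0.09). Mrpl33, a small protein of the large subunit, was at 563, 473 and 468 with saline and 454, 283 and 275 with PB1046. Replicate 1 of the PB1046 group was close to the saline libraries and the others were far below. Its log2 change was the largest downward among the members, -0.60 (SE 0.25, 95% interval -1.15 to -0.05).

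Mrps21, among the most abundant members, was at 571, 570.2 and 638 with saline and 478, 381.5 and 338 with PB1046, a log2 change of -0.58 (SE 0.23). Mrpl30 was at 651, 656 and 733 with saline and 559, 505 and 391 with PB1046, a log2 change of -0.50 (SE 0.21). Mrpl11, which forms the base of the factor-binding stalk, was at 46.8, 42.7 and 46.8 with saline and 37.6, 29.6 and 31.5 with PB1046, a log2 change of -0.46 (SE 0.20). In these 3 genes, too, no PB1046 library reached the saline libraries, and replicate 1 was the highest of the PB1046 libraries. The largest change upward was that of Mrps12, which was at 121, 117 and 140 with saline and 222, 94.1 and 147 with PB1046. Replicates 1 and 2 of the PB1046 group lie on either side of all saline libraries, and the log2 change of 0.21 (SE 0.39) became -0.09 without replicate 1.

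**Figure D4:**
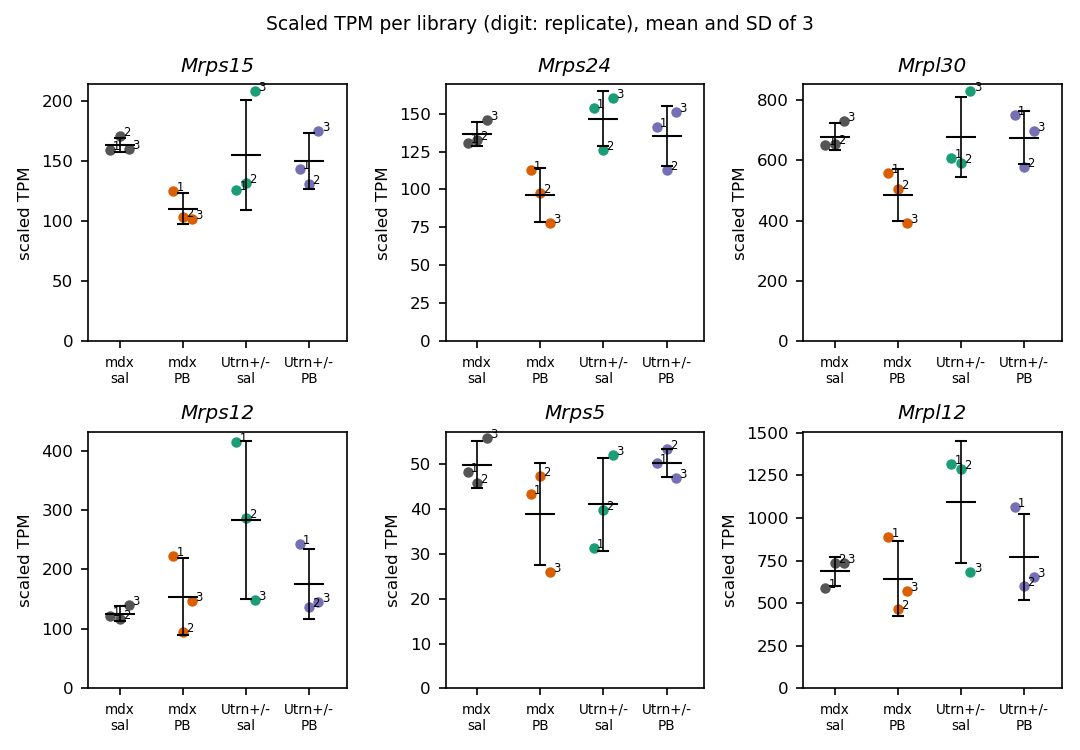
Scaled TPM of 6 members in each library (points, numbered by replicate), with the mean and SD of 3 libraries per group (black). Mrps15, Mrps24 and Mrpl30 are lower in all mdx PB1046 libraries than in all mdx saline libraries; Mrps12 and Mrpl12 are highest in replicates 1 and 2 of mdx:Utrn+/- saline; and Mrps5 shows its widest spreads in mdx PB1046 and mdx:Utrn+/- saline.

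In mdx:Utrn+/- hearts 62 members were lower with PB1046 and 15 higher, with a median log2 change of -0.14 against -0.02 for all genes, but on unscaled TPM 27 were lower and the median was 0.05 against 0.15. The direction rested on replicate 2 of mdx:Utrn+/- PB1046, the library of high endothelial score in that group: without it 22 members were lower and the median was 0.08, against -0.25 without replicate 1 and -0.24 without replicate 3 of that group. With the endothelial score as a term in the fit 30 were lower, and with length and level trends taken off 35. All 12 endothelial markers (median 0.57) and all 5 erythroid genes (0.69) had a higher mean with PB1046 here, and all 10 fibroblast (-0.31), all 10 macrophage markers (-0.51) and all 4 atrial genes (-0.87) a lower one. At an unadjusted p under 0.05 stood 1 member, lower (1.30%, against 1.23% of all genes in that direction), and 1 member, Mrpl16, was lower without overlap (background 2.91%). Mrpl16, a large subunit protein near the catalytic centre, was at 179, 172 and 144.2 with saline and 135, 90.2 and 143.8 with PB1046. The nearest libraries of the groups differ by less than the replicates do, and the log2 change was -0.44 (SE 0.26, 95% interval -1.01 to 0.13). Mrps26, a protein without a bacterial counterpart, was at 144, 124 and 113 with saline and 116, 71.9 and 84.3 with PB1046, a log2 change of -0.50 (SE 0.23). Its groups overlapped by the highest PB1046 library. Mrps12 gave the largest change downward, -0.62 (SE 0.39), from 414, 286 and 149 under saline to 243, 138 and 145.5 under PB1046, a range that overlaps. Mrpl21 gave the largest change upward, 0.47 (SE 0.35), with 27.2, 28.0 and 33.7 under saline and 52.6, 29.5 and 45.1 under PB1046, again with overlap.

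The PB1046 changes of the genotypes were also set against each other within the fit. The median of that difference (mdx:Utrn+/- minus mdx) over the 77 genes was 0.13, against -0.03 for all genes, with 54 genes above 0 and 23 below. No member had an unadjusted p under 0.05, against 2.28% of all genes. This median was not stable. It was 0.39 without replicate 2 of mdx:Utrn+/- PB1046, 0.31 without replicate 1 of mdx PB1046 and 0.23 without replicate 2 of mdx saline. With the endothelial score as a term it was 0.34. It was -0.02 without replicate 1 of mdx saline, 0.06 without replicate 3 of mdx PB1046, 0.08 without replicate 2 of mdx:Utrn+/- saline, and 0.04 and 0.07 without replicates 1 and 3 of mdx:Utrn+/- PB1046. The largest difference upward was that of Mrps5, a protein at the decoding centre. Mrps5 was at 48.2, 45.9 and 55.8 in mdx saline and 43.4, 47.4 and 26.0 in mdx PB1046, and at 31.3, 39.9 and 52.0 in mdx:Utrn+/- saline and 50.4, 53.3 and 47.0 in mdx:Utrn+/- PB1046. Its groups overlap in both genotypes, and the difference was 0.70 (SE 0.34, 95% interval -0.05 to 1.45, limma adjusted p = 0.99958). The largest difference downward was that of Mrps12, -0.83 (SE 0.55). Averaged over both genotypes, 70 members were lower with PB1046 (median -0.20, on unscaled TPM 46 and -0.03), and 6 of the lower members had an unadjusted p under 0.05 (7.79%, against 1.24% of all genes in that direction), led by Mrps26 (-0.43, SE 0.16) and Mrpl54 (-0.37, SE 0.15). The averaged median was -0.10 without replicate 2 of mdx:Utrn+/- PB1046, -0.09 with the endothelial score as a term and -0.05 with trends taken off.

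The effect of losing a Utrn copy was compared under each treatment. Under saline 64 members were higher in mdx:Utrn+/- than in mdx and 13 lower, with a median log2 difference of 0.22 against 0.03 for all genes, but on unscaled TPM 33 were higher and the median was -0.05 against -0.20. Here the endothelial markers moved the other way: all 12 were lower in mdx:Utrn+/-, with a median of -0.71. All 10 macrophage markers (median 0.37) and all 5 erythroid genes (1.28) were higher, and 6 of 10 fibroblast markers. The members' median was 0.34 without replicate 1 of mdx saline. With the endothelial score as a term 38 members were higher, and with the 7 libraries of low endothelial score alone also 38, with member medians of -0.01 in both fits. At an unadjusted p under 0.05 stood 2 members, both higher (2.60%, against 2.56% of all genes in that direction). The groups did not overlap for 12 members, all higher in mdx:Utrn+/- (15.6%, background 5.81%): Mrpl16, Mrpl17, Mrpl20, Mrpl54, Mrpl55, Mrps7, Mrps9, Mrps12, Mrps17, Mrps18b, Mrps25 and Mrps26.

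Mrps12 had the largest difference between genotypes under saline. It was at 121, 117 and 140 in mdx and 414, 286 and 149 in mdx:Utrn+/-, so that the groups were apart by the small gap between 140 and 149 and the mdx:Utrn+/- libraries spread widely. The log2 difference was 1.05 (SE 0.39, 95% interval 0.20 to 1.90, limma adjusted p = 0.837). Mrpl28, a large subunit protein, was at 316, 351 and 365 in mdx and 731, 718 and 362 in mdx:Utrn+/-, a log2 difference of 0.74 (SE 0.31). Its replicates 1 and 2 were far above mdx and replicate 3 was within it. Mrps7, a small subunit head protein, was at 159, 168 and 164 in mdx and 266, 234 and 203 in mdx:Utrn+/-, a log2 difference of 0.51 (SE 0.24). Mrpl17 was at 13.8, 13.7 and 13.9 in mdx and 23.5, 17.6 and 15.4 in mdx:Utrn+/-, a log2 difference of 0.40 (SE 0.20). Both were without overlap, and in both replicate 3 of mdx:Utrn+/- was the nearest to mdx. Mrps5 had the largest difference downward, -0.30 (SE 0.24).

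Under PB1046 all 77 members had a higher mean in mdx:Utrn+/- than in mdx, with a median log2 difference of 0.34 against 0.00 for all genes, and on unscaled TPM 60 were higher, with a median of 0.11 against -0.20. With length and level trends taken off 62 were higher, with a median of 0.11. At an unadjusted p under 0.05 stood 6 members (7.79%, against 0.86% of all genes in that direction), all higher. Only Mrps15 and Mrpl30 did not overlap (2.60%, background 2.48%). Replicate 1 of mdx PB1046 was high and replicate 2 of mdx:Utrn+/- PB1046 low in nearly all members. The median was 0.53 without either of these libraries and 0.70 without both, but 0.21 without replicate 3 of mdx PB1046. It was 0.30 with the endothelial score as a term and 0.15 in the 7 libraries of low endothelial score. In these 7 the only mdx PB1046 library is replicate 1, whose level of Utrn lies among the other genotype. Markers of other cells went the opposite way to the members: all 10 fibroblast markers (median -0.74), all 10 macrophage markers (-0.57) and 8 of 9 smooth muscle and pericyte markers (-0.44) had a lower mean in mdx:Utrn+/-, as had 9 of 12 endothelial markers (-0.09) and 3 of 4 atrial genes (-1.69). The fibroblast markers summed to 554 to 1114 TPM in mdx PB1046 and 267 to 409 TPM in mdx:Utrn+/- PB1046, the macrophage markers to 294 to 859 and 172 to 409 TPM, and the smooth muscle and pericyte markers to 251 to 447 and 206 to 250 TPM. What part these cells have in the result was not tested. This comparison shares the mdx PB1046 libraries with the PB1046 comparison in mdx, so the lower values there and the higher values here are not separate observations.

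Mrps24 was at 113, 97.6 and 78.05 in mdx PB1046 and 141, 113 and 151 in mdx:Utrn+/- PB1046, a log2 difference of 0.49 (SE 0.20, 95% interval 0.06 to 0.92, limma adjusted p = 1.0). The groups overlapped narrowly, at 113. Mrpl30 was at 559, 505 and 391 in mdx and 751, 579 and 698 in mdx:Utrn+/-, a log2 difference of 0.49 (SE 0.21), without overlap. Mrpl55, a large subunit protein with a bacterial counterpart, gave the largest difference, 0.56 (SE 0.24), with 247, 148 and 144 in mdx and 323, 198 and 267 in mdx:Utrn+/-. Its lowest mdx:Utrn+/- library fell below the highest mdx library. The like was seen in Mrpl52 (0.50, SE 0.23), Mrpl51 (0.50, SE 0.23) and Mrpl54 (0.46, SE 0.21), which are proteins specific to the mitochondrial ribosome. Averaged over both treatments, 76 members were higher in mdx:Utrn+/- and Mrpl39 was lower (median 0.29, on unscaled TPM 43 higher and 0.04), and 11 of the higher members had an unadjusted p under 0.05 (14.3%, against 2.65% of all genes in that direction), led by Mrpl54 (0.42, SE 0.15) and Mrps6 (0.43, SE 0.16). The averaged median was 0.15 with the endothelial score as a term, 0.08 in the 7 libraries and 0.05 with trends taken off. It was 0.47 without replicate 1 of mdx PB1046 and replicate 2 of mdx:Utrn+/- PB1046.

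By group means of scaled TPM, mdx PB1046 was the lowest of the 4 groups for 67 of the 77 genes, and mdx:Utrn+/- saline the highest for 58. The top place depended on the scaling. As deposited, the summed level had means of 11743 TPM in mdx saline, 10669 in mdx PB1046, 11709 in mdx:Utrn+/- saline and 11703 in mdx:Utrn+/- PB1046. The share of a gene's variance that lay between groups had a median of 35.9% among members and 23% among all genes tested. It was highest for Mrpl54 (71.3%), Mrps24 (68.0%) and Mrpl14 (65.5%). Mrpl54 was at 222 ± 17.9 scaled TPM in mdx saline, 169 ± 41.9 in mdx PB1046, 287 ± 17.9 in mdx:Utrn+/- saline and 231 ± 36.3 in mdx:Utrn+/- PB1046 (SD, n = 3). In this order mdx saline and mdx:Utrn+/- PB1046 do not differ beyond their spread, and their libraries also overlap those of mdx PB1046. The lowest mdx:Utrn+/- saline library, at 269, lies just below the highest of mdx:Utrn+/- PB1046, at 270.

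**Figure D5:**
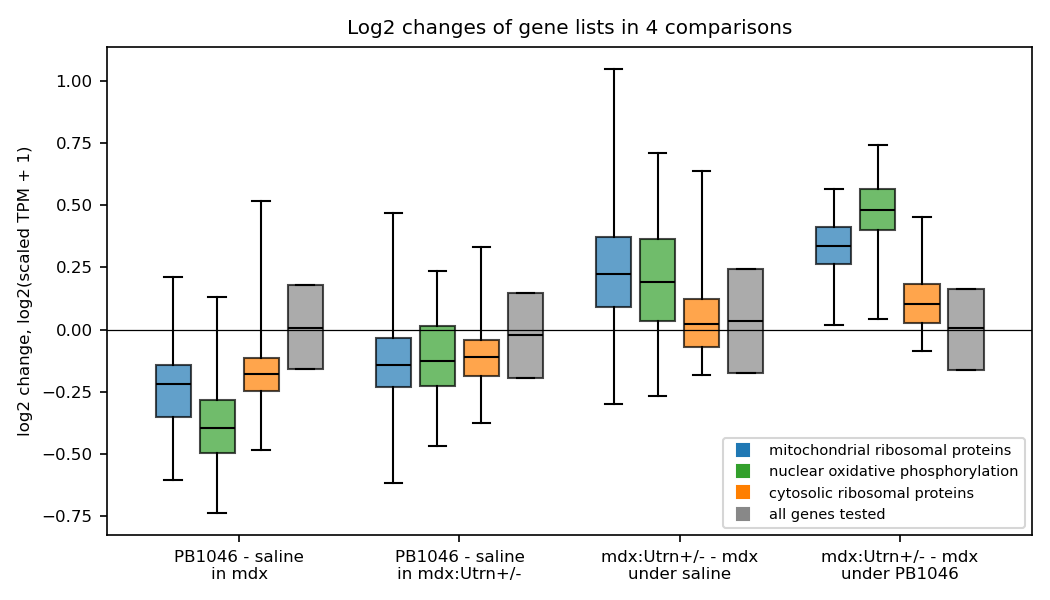
Log2 changes in 4 comparisons for the 77 members, 75 nuclear oxidative phosphorylation genes, 79 cytosolic ribosomal protein genes and all 12798 genes tested: box, middle range; line, median; whiskers, lowest and highest gene (left out for all genes). Member medians were -0.22, -0.14, 0.22 and 0.34 from left to right, and on unscaled TPM the second and the third change sign (0.05 and -0.05).

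Within the ribosome the functional groups went the same way as the whole. For the 4 proteins of the L7/L12 stalk region (Mrpl10, Mrpl11, Mrpl12, Mrpl53), where elongation factors bind, the medians for PB1046 in mdx, PB1046 in mdx:Utrn+/-, genotype under saline and genotype under PB1046 were -0.19, -0.23, 0.32 and 0.28. For the 6 proteins around the polypeptide exit (Mrpl22, Mrpl23, Mrpl24, Mrpl44, Mrpl45, Mrpl47) they were -0.20, -0.13, 0.25 and 0.36. For the 6 of the central protuberance (Mrpl18, Mrpl27, Mrpl38, Mrpl40, Mrpl46, Mrpl48), which bridges to the small subunit, they were -0.26, -0.14, 0.16 and 0.27. No gene of these groups is a call. The 2 proteins of the decoding centre, Mrps5 and Mrps12, went apart, with opposite signs in the first 3 of these comparisons. In the third, Mrps12 was at 1.05 and Mrps5 at -0.30.

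Mrps18a, Mrps18b and Mrps18c descend from 1 bacterial protein, S18, and occupy different places in the ribosome. Mrps18a, the large subunit form, was at 256 ± 57.0 scaled TPM in mdx saline, 274 ± 97.5 in mdx PB1046, 436 ± 138 in mdx:Utrn+/- saline and 325 ± 144 in mdx:Utrn+/- PB1046 (SD, n = 3). Mrps18c was at 165 ± 19.1, 135 ± 42.8, 175.5 ± 10.4 and 163 ± 31.7 in the same order, with less spread in every group. Mrps18b was at 121 ± 13.9, 104 ± 37.1, 161 ± 20.1 and 142 ± 51.4. Over the 12 libraries the coefficient of variation was 37.8% for Mrps18a, 27.8% for Mrps18b and 18.2% for Mrps18c.

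The 4 members tied to human cardiomyopathy, Mrpl3, Mrpl44, Mrps14 and Mrps22, were all higher in mdx:Utrn+/- than in mdx under either treatment (medians 0.16 and 0.38), and 3 of the 4 were lower with PB1046 in mdx:Utrn+/- and all 4 in mdx (medians -0.08 and -0.18). Mrpl44, which takes part in assembly of the large subunit, was at 89.2, 38.6 and 40.9 scaled TPM in mdx saline and 68.6, 42.3 and 39.0 in mdx PB1046. It was at 76.8, 62.5 and 68.6 in mdx:Utrn+/- saline and 71.4, 36.0 and 93.9 in mdx:Utrn+/- PB1046. Its 5 lowest libraries are the 5 of high endothelial score. Mrps22 was at 33.8, 15.4 and 18.6, at 25.7, 18.1 and 14.8, at 21.5, 24.5 and 23.4 and at 21.9, 17.5 and 29.0 in the same order of groups, with the same 5 libraries lowest.

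Members with a bacterial counterpart (48) and those found only in mitochondria (29, Mrps36 included) had library scores that differed little: -0.49 to 0.30 for the first and -0.49 to 0.26 for the second, lowest in replicate 3 of mdx PB1046 for both. The ribosomal proteins with other names, Dap3, Chchd1, Ptcd3, Aurkaip1, Gadd45gip1 and Ict1, gave medians of -0.34, -0.14, 0.18 and 0.39 in the 4 comparisons, close to those of the 77. Chchd1, a small subunit protein, was at 310 ± 28.0 scaled TPM in mdx saline, 230.5 ± 86.7 in mdx PB1046, 359 ± 18.3 in mdx:Utrn+/- saline and 313 ± 66.4 in mdx:Utrn+/- PB1046 (SD, n = 3). Its SD under PB1046 is the larger in both genotypes.

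The other genes of mitochondrial translation gave medians nearer to 0 for PB1046 in mdx and for both genotype comparisons. The 25 genes for assembly of the mitochondrial ribosome (GTPases, helicases and RNA-modifying enzymes such as Mtg2, Malsu1 and Rbfa) gave medians of -0.09, -0.06, 0.11 and 0.15. The 14 tested of 15 translation factors (initiation, elongation and release, such as Tufm and Gfm1) gave -0.07, 0.10, 0.11 and 0.11. For the 17 mitochondrial aminoacyl-tRNA synthetases, which charge the organelle's tRNAs, medians were -0.06, -0.01, 0.12 and 0.23. For the 14 genes of mitochondrial transcription and RNA handling, such as Polrmt and Tfam, they were -0.08, 0.10, 0.02 and 0.23. No gene of these lists passed the threshold in any contrast, and the difference of each list from the members was not tested.

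Nuclear oxidative phosphorylation genes, whose products assemble with the proteins that this ribosome makes, had larger medians than the members in the comparisons that involve mdx PB1046. Of the 75 genes, 70 were lower with PB1046 in mdx (median -0.39) and all 75 higher in mdx:Utrn+/- under PB1046 (median 0.48), while the medians of the other comparisons were -0.13 (PB1046 in mdx:Utrn+/-) and 0.19 (genotype under saline). Their library score ran from -0.67 in replicate 3 of mdx PB1046 to 0.38 in replicate 1 of mdx:Utrn+/- PB1046. The 79 cytosolic ribosomal protein genes gave medians of -0.18, -0.11, 0.02 and 0.10, and their library score (-0.24 to 0.20) was above 0 in 3 of the 5 libraries that were low in the members. Cardiomyocyte markers, at -0.29, -0.06, 0.17 and 0.33, had the signs of the members in each of the 4 comparisons. These lists are set side by side as descriptions.

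The authors' deposited table gives its own comparisons of the groups in pairs. In the authors' deposited table, 0 members and 0 genes had a false discovery rate under 0.05 in any of the 6 pairs. In the authors' deposited table, 3 members had an unadjusted p under 0.05 between mdx saline and mdx PB1046 (3.90%, against 4.07% of all its genes) and 3 between the genotypes under saline (3.90%, against 4.65%). The largest number, 21 members (27.3%, against 6.70% of all its genes), was given by the authors' deposited table for mdx:Utrn+/- saline against mdx PB1046, groups that differ in both genotype and treatment, with 74 members lower in mdx PB1046 and a median log2 change of -0.47. For mdx saline minus mdx PB1046 the median of the authors' deposited table over the 77 genes was 0.22, and for mdx PB1046 minus mdx:Utrn+/- PB1046 it was -0.34. For the latter pair 0 members had an unadjusted p under 0.05 in the authors' deposited table, against 2.70% of all its genes. The limma fit described above had 6 members there.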

How the data were processed

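Cardiomyocyte poly-A RNA was sequenced with a stranded kit in 12 libraries, 3 in each of 4 groups read from the labels. The authors deposited 1 table of 18530 genes on mm10. Although its name speaks of raw counts, the deposited values are TPM and total 1000000 in each library. Per the file headers the table also holds the authors' log2 fold changes, a likelihood ratio score, p-values and false discovery rates, and the sign of these log2 values was read from their correlation with TPM. The names of the aligner and counter were not given in the sources used here. Whole reads recovered from the TPM (100% of values within 0.1 reads) served depth and limma-voom. TPM were divided by trimmed-mean factors (30% of log ratios and 5% of levels trimmed), put on log2(value + 1), and fitted with limma 3.58.1 (R 4.3.3; trend and robust settings, a mean per group, 8 residual degrees of freedom). The fit held the 12798 genes that reach 1 TPM in 3 or more libraries, Benjamini-Hochberg adjustment over all of them, a threshold of 0.05 and 7 contrasts. A fold change on this scale understates that of low genes.

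Members and lists were chosen with earlier results of these data known. Any member may be named by level. Full statistics go to members with the smallest unadjusted p per contrast and direction, the highest and lowest members and the functional groups, and the coefficient of variation, axis and promoter examples were chosen after their values were seen. Replicate numbers in the titles did not pair the libraries: 5 of 18 same-numbered pairs correlated above 0.1 (-0.44 to 0.49). On simulated data for PB1046 in mdx (12798 genes), limma recovered 37 of 100 genes changed by a log2 of 1 and 91 of 100 changed by 2. Alternatives numbered 25. Overlapping genes, and reads from them, were not separated.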

Additional observations from a re-analysis of the deposited data

Results flagged for a closer look

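Mrps5 was singled out because its PB1046 libraries lie on opposite sides of the saline mean in the genotypes: every mdx PB1046 library was below the mdx saline mean and every mdx:Utrn+/- PB1046 library above the mdx:Utrn+/- saline mean. The difference of the log2 changes was 0.70 (SE 0.34), with a limma adjusted p of 0.99958. It was 0.48 without replicate 3 of mdx PB1046, the lowest library, and 0.93 without replicate 2 of that group.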

How the results depend on the processing

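No member passed the threshold under any of the 25 alternatives, and the smallest adjusted p (limma) of a member in any of them was 0.124. Of 1750 values compared, 1724 were counted as the same. A median counted so if it moved by less than 0.246, whatever its sign, and a count if it stayed within a set ratio. A named gene counted so if it kept its sign and its call, whatever its size. The median for PB1046 in mdx:Utrn+/- thus counted as the same although it went from -0.14 to 0.051 without scaling. Members lower with PB1046 in mdx:Utrn+/- numbered 62, against 27 without scaling, 35 with trends removed, 30 with an endothelial term, 28 without replicate 1 of mdx PB1046 and replicate 2 of mdx:Utrn+/- PB1046, 27 in the 7 libraries of low endothelial score, and 22 to 68 when each library was left out. Members higher in mdx:Utrn+/- under saline numbered 64, against 33 without scaling (median -0.050), 36 with trends removed, 38 with an endothelial term and 38 in the 7 libraries. Under PB1046 the median between genotypes was 0.70 without the pair of libraries. The median difference of the PB1046 changes, 0.13, was 0.50 without the pair and -0.018 to 0.39 leaving out each library. Averaged over genotypes, 70 members were lower with PB1046, against 46 without scaling and 39 in the 7 libraries. Averaged over treatments, 76 were higher in mdx:Utrn+/-, against 43 without scaling (median 0.042) and 48 in the 7 libraries. Without the pair that averaged median was 0.47, against 0.29 with it. Mrps12 for PB1046 in mdx (0.21) was -0.075 with an Rn45s term, -0.092 without replicate 1 of mdx PB1046 and -0.092 without the pair, and 0.49 at the highest when each library was left out. The cause of these changes was not tested. With the replicate number as a block the median for PB1046 in mdx was -0.22, as without it, and the block changed no call. Without replicate 3 of mdx:Utrn+/- saline, 1 gene of the table that is no member passed for the difference of the PB1046 changes. The pair and the 7 libraries were chosen after seeing the data.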
